A study of Mus musculus with 6 samples.

Results

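The proteasome is the barrel-shaped protease that degrades proteins tagged with ubiquitin, and its genes were followed here in cultured mouse ILC2s (group 2 innate lymphoid cells) exposed to toyocamycin. The genes were taken by name: every gene of the deposited table whose symbol joins Psm, one of the letters a to g and a number, together with Pomp and Sem1, which gave 52 of 25865 genes. Of these, 50 belong to the complex or serve it. Psmc3ip, a cofactor of meiotic recombination, and Psme3ip1, a partner of the activator PA28 gamma, share only the prefix or bind from outside. Both are described apart but stay in the counts over all members. The filter on low values, a mean normalised read count of at least 1 over the 6 samples, passed 50 of the 52.

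RNA was sequenced from 3 toyocamycin samples and 3 Control samples. In both groups, C57BL/6 mice were the source of the ILC2s, which were sorted from the large bowel and expanded for 5 days in IMDM with IL-33, IL-25, IL-7 and IL-2 at 10 ng/mL per cytokine, before toyocamycin or its vehicle was added. Toyocamycin, an adenosine analogue known to block the RNase of the stress sensor IRE1 and the maturation of ribosomal RNA, was present for 16 hours; its dose, the duration of the vehicle treatment, the age and sex of the mice and any pooling of animals are not stated. Whether the 3 samples of a group came from separate mice or cultures is not stated either, so a p-value here reflects the spread among libraries, possibly a technical one.

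The 20S core particle is a stack of outer alpha rings, which gate the chamber, and inner beta rings, in which Psmb5, Psmb6 and Psmb7 carry the active sites. In cells of the immune system, and in others after interferon gamma, Psmb8, Psmb9 and Psmb10 take the places of Psmb5, Psmb6 and Psmb7 and form the immunoproteasome, which alters the peptides available for MHC class I. A 19S regulatory particle, made of a base with an ATPase ring and a lid that removes ubiquitin, caps the core in the 26S proteasome, and other activators can bind in its place.

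Samples held 22.3 M to 36.7 M reads in the toyocamycin group and 25.5 M to 27.0 M in the Control group. Values are normalised read counts: whole reads per gene divided by 1 size factor for each sample. Across the table, 65.9% of the 16223 genes tested passed an adjusted p of 0.05 (limma, Benjamini-Hochberg over all genes tested), 32.8% of them higher and 33.1% lower with toyocamycin, and the median log2 change was −0.03. With samples scaled to equal totals the calls were 4039 higher and 6895 lower, in place of 5316 and 5374, and the median moved to −0.35, so small changes are relative to the deposited scaling. All 10 ILC2 markers examined were detected in the cells, with a summed level of 335364 to 364426 in toyocamycin samples and 393141 to 402675 in Control samples. Of these, 4 were higher and 5 lower, among them the transcription factor gene Rora, 13.1-fold higher, and the cytokine gene Il13, 6.95-fold lower. Since these are bulk samples, fewer cells of a type and less RNA per cell cannot be told apart.

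With the deposited scaling, most genes of the constitutive proteasome rose with toyocamycin while all 3 immunoproteasome genes fell. Over the 50 genes tested, 31 were higher, 16 lower and 3, Psmb5, Psmd3 and Psmg1, passed the test in neither direction, so that 94% were called against 65.9% of all genes tested. Groups did not overlap in 47 of the 50, against 69.1% of all genes tested. The median log2 change was 0.44 (range −3.20, that of Psmc3ip, to 1.59), against −0.03 for all genes. Without Psmc3ip and Psme3ip1, 30 of 48 tested genes were higher and 15 lower, with a range of −2.47 to 1.59. Among the 32 tested genes of the constitutive core and regulatory particle, 24 were higher and 6 lower, with a median of 0.52 (18 higher and 10 lower with equal totals). Over the 50 genes tested, fewer were called higher with equal totals and with quantile normalization, but not after the GC and length correction. The median over all genes tested moved as well with equal totals, to −0.35. With equal totals, 24 of the 50 were higher and 20 lower (median 0.087), against 24.9% and 42.5% of all genes tested. With quantile normalization, 24 were higher and 17 lower (median 0.12), against 33% and 31.8%. After the GC and length correction, 31 were higher and 14 lower, against 32.7% and 33%. A change of at least 2-fold was called in 6 higher and 5 lower genes, 12% and 10% of the 50, against 17% and 20.5% of all genes tested.

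The sum of the 52 genes was 139864 ± 5734 normalised reads in toyocamycin samples and 111846 ± 3596 in Control samples (SD, n = 3 each), 1.25-fold higher. As a share of all reads, however, the same genes took 0.468% ± 0.0048 in toyocamycin samples and 0.477% ± 0.013 in Control samples. By role the shares differed more. Alpha ring genes took 0.0723% of reads in toyocamycin samples and 0.0611% in Control samples, assembly genes 0.0262% and 0.0203%, and lid genes 0.106% and 0.0927%. Lower shares included those of the immunoproteasome (0.0134% and 0.0290%), the beta ring (0.0608% and 0.0665%), the base (0.137% and 0.144%) and the activators and inhibitor (0.0444% and 0.0550%). With the deposited scaling, alpha ring genes summed to 1.51-fold and assembly genes to 1.64-fold of Control. On that scale the immunoproteasome genes summed to 4008 ± 132 in toyocamycin samples and 6796 ± 291 in Control samples, 1.70-fold lower.

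**Figure D1:**
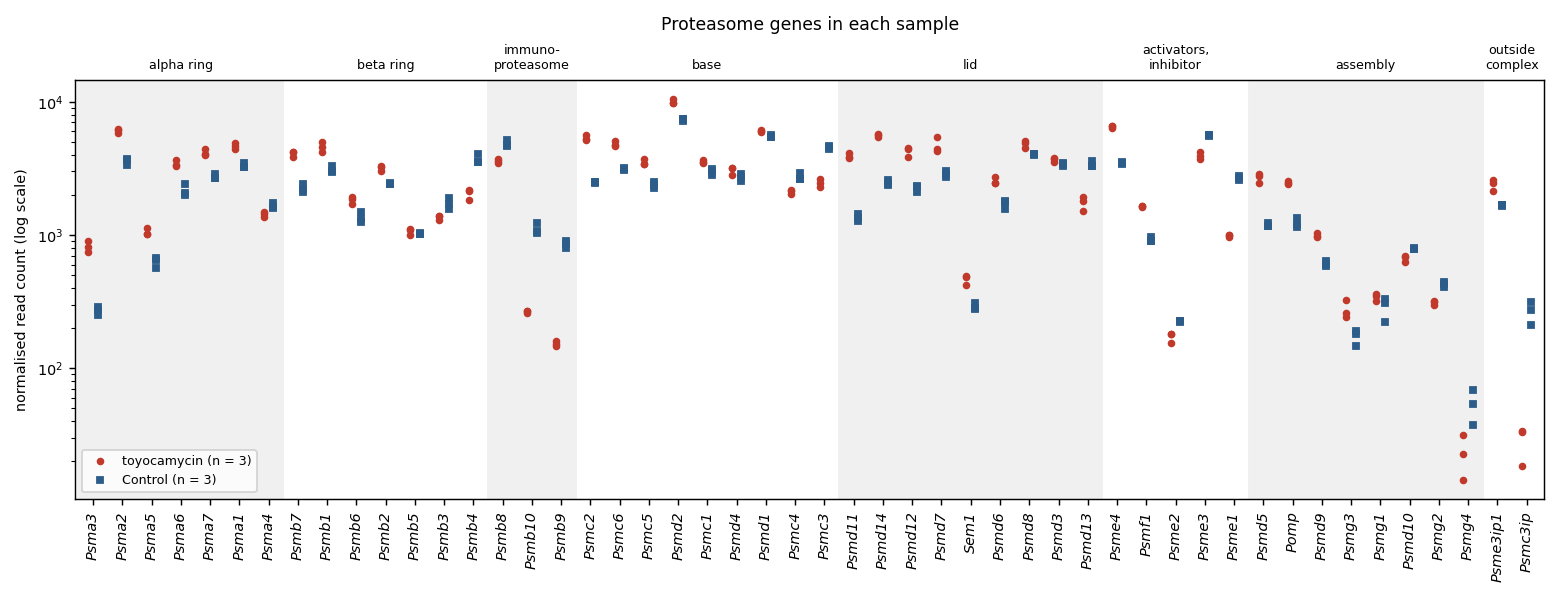
The normalised read count of each proteasome gene past the filter is plotted on a log scale, with 1 red circle per toyocamycin sample and 1 blue square per Control sample, grouped by role. The circles stand above the squares in most alpha ring, base and lid genes and below them in Psmb8, Psmb9 and Psmb10.

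The immunoproteasome genes, which encode the catalytic subunits β1i, β2i and β5i, had 3 of 3 members lower, against 33.1% of all genes tested. All 3 were also lower with equal totals, against 42.5%, and with quantile normalization, against 31.8%. After the GC and length correction 2 of the 3 were lower, against 33%. Psmb9 (β1i; chr17:34182030-34187330, GRCm38) had 146.6, 152.4 and 160.3 normalised reads in toyocamycin samples, against 860.8, 800.4 and 905.8 in Control samples. Every toyocamycin sample lay far below every Control sample, and the mean was 5.59-fold lower (log2 change −2.47, SE 0.11, limma adjusted p = 2.21e-14). Psmb10 (β2i; chr8:105935728-105938392) had 269.4, 271.0 and 258.6 in toyocamycin samples, against 1028, 1230 and 1072 in Control samples. This gene too showed no overlap, and was 4.17-fold lower (log2 change −2.05, SE 0.096, limma adjusted p = 4.55e-14). Psmb8 (β5i; chr17:34198195-34201454) had 3621, 3699 and 3445 in toyocamycin samples, against 4650, 4707 and 5134 in Control samples. Its groups were also separate but close, 1.35-fold lower (log2 change −0.43, SE 0.056, limma adjusted p = 6.64e-07), and the call was lost when gene length and GC content were corrected for (log2 change −0.10, limma adjusted p = 0.112, range over the alternatives, edgeR and DESeq2 included, 6.09e-13 to 0.112). Psmb9 and Tap1, which lie head to head, share 212 bases of exon in the annotation, and Psmb8 shares 186 bases with another annotated gene, so reads there cannot be assigned to 1 gene without strand.

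Macrophages, dendritic cells and B cells also express the immunoproteasome. Their markers were low in sum beside the ILC2 markers. The 5 macrophage and dendritic cell markers summed to 1063 to 1547 in toyocamycin samples and 877 to 1287 in Control samples, with 1 of them, Cd68, called higher. Not every ILC2 marker exceeded them: Thy1 averaged 121 in toyocamycin samples and 134 in Control samples and Il17rb 329 and 400, against 586 and 592 for Lyz2 and 679 and 448 for Cd68. In Control samples Psmb9 and Psmb10 averaged 856 and 1110, within the range of that macrophage and dendritic cell sum. The 4 B cell markers summed to 21.2 to 30.4 in toyocamycin samples and 22.8 to 39.0 in Control samples, and none was called. The 6 T cell markers summed to 194 to 240 in toyocamycin samples and 190 to 217 in Control samples, with 1 called higher and 2 lower. NK cell and ILC1 markers and mast cell markers summed to at most 5.28 in toyocamycin samples and at most 14.5 in Control samples, with Fcer1a at 0 throughout. The 4 fibroblast and endothelial markers, at 645 to 816 in toyocamycin samples and 1128 to 1297 in Control samples, were lower in sum. The difference was carried by Pecam1, at 565.0 ± 40.5 in toyocamycin samples and 1012 ± 39.7 in Control samples (SD, n = 3 each), while Col1a1, Pdgfra and Cdh5 were not called. The part of these cells in the lower immunoproteasome genes was not tested.

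The constitutive subunits that these 3 replace did not fall with them under the deposited scaling: Psmb7 and Psmb6 rose and Psmb5 passed the test in neither direction. Psmb7 (β2; chr2:38588046-38643952) had 4189, 4232 and 3820 in toyocamycin samples, against 2116, 2208 and 2398 in Control samples. All toyocamycin samples were higher, by 1.82-fold on average (log2 change 0.86, SE 0.062, limma adjusted p = 5.07e-11). Psmb6 (β1; chr11:70525324-70527858) had 1698, 1934 and 1848 in toyocamycin samples, against 1260, 1316 and 1496 in Control samples. It was 1.35-fold higher (log2 change 0.43, SE 0.074, limma adjusted p = 2.55e-05), without overlap, but not called with equal totals (log2 change 0.08, limma adjusted p = 0.294, range over the alternatives 3.76e-07 to 0.294). Psmb5 (β5; chr14:54614120-54617995) had 1115, 1085 and 1007 in toyocamycin samples, against 1032, 1011 and 1018 in Control samples. Here the groups overlapped and the change did not pass the test (log2 change 0.07, SE 0.072, limma adjusted p = 0.446); with equal totals the value was −0.28 and passed the test, and after the GC and length correction it was 0.29 and passed too (adjusted p over the alternatives 9.02e-04 to 0.72, the upper end from edgeR). A near-identical copy of Psmb5, 796 bases long, lies elsewhere in the genome, and Psmb7 shares 405 bases of exon with Nek6, so the reads of both are uncertain.

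Within each sample, the log2 ratio of an immune subunit to the constitutive one it replaces is the same whichever single factor scales that sample. For Psmb9 over Psmb6 it was −3.53, −3.66 and −3.52 in toyocamycin samples, against −0.55, −0.72 and −0.72 in Control samples, a ratio 7.48-fold lower. For Psmb10 over Psmb7 it averaged −3.93 ± 0.045 in toyocamycin samples and −1.02 ± 0.16 in Control samples (SD, n = 3 each), 7.55-fold lower. For Psmb8 over Psmb5 it averaged 1.75 ± 0.042 in toyocamycin samples and 2.24 ± 0.084 in Control samples, 1.41-fold lower. The 3 pairs thus shifted the same way, the β5 pair by much less than the others, and in none did the groups overlap. The exact two-sided permutation test gave p = 0.1 for each pair, the smallest that 3 against 3 samples allow, and 0.1 after adjustment over the 3 pairs.

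Per kilobase of exon, the scale on which levels of different genes can be set side by side, the immune subunit made up 4.72% ± 0.24 of the β1 pair in toyocamycin samples and 27.2% ± 1.36 in Control samples (SD, n = 3 each). In the β2 pair its share was 5.47% ± 0.16 in toyocamycin samples and 30.5% ± 2.36 in Control samples. In the β5 pair it was 65.0% ± 0.66 in toyocamycin samples and 72.3% ± 1.15 in Control samples. In both toyocamycin and Control samples the immune subunit was the more abundant of its pair only at the β5 position, where the level of Psmb5 is uncertain because of its copy.

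**Figure D2:**
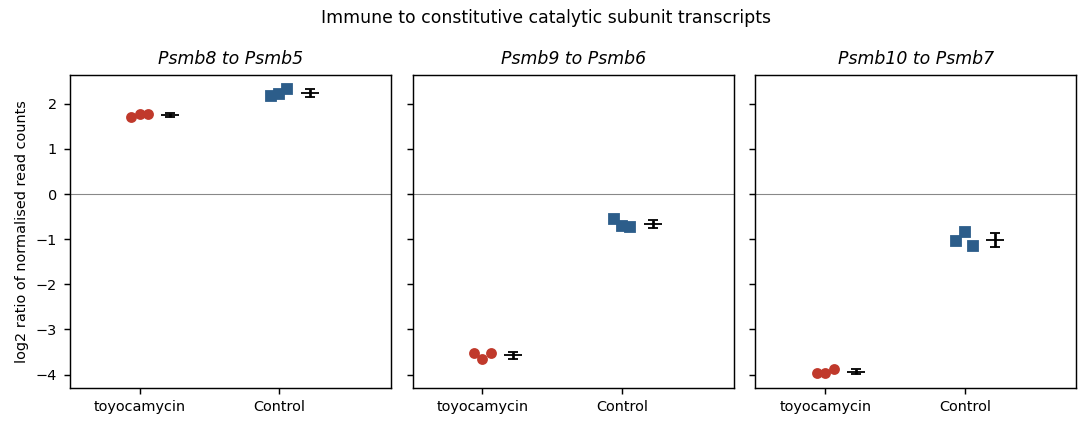
Each panel plots the log2 ratio of the normalised read counts of an immune subunit to those of its constitutive counterpart, 1 point per sample, with the mean and SD of 3 samples as a bar to the right. The toyocamycin points lie below the Control points in all 3 panels, with a difference of means of −0.49 for Psmb8 to Psmb5, −2.90 for Psmb9 to Psmb6 and −2.92 for Psmb10 to Psmb7.

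Promoters of the genes that fell are printed because immunoproteasome genes are known to be induced by interferons through short motifs of this kind. Each sequence, from RefSeq on GRCm38.p6, runs 5′ to 3′ on the gene's strand from 250 bases before to 50 after its RefSeq start. Capitals mark the letters TTCNNNGAA (the gamma-activated site) or the interferon-stimulated response element, read as GAAA and again GAAA with NN between them, both searched on either strand.
Psmb9 (chr17:34187281-34187580, minus strand): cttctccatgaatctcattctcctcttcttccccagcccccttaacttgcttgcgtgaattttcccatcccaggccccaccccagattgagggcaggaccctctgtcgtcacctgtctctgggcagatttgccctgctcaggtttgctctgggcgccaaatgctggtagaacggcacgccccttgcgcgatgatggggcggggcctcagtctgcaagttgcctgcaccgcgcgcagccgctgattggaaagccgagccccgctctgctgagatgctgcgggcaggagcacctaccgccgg
Psmb10 (chr8:105938343-105938642, minus strand): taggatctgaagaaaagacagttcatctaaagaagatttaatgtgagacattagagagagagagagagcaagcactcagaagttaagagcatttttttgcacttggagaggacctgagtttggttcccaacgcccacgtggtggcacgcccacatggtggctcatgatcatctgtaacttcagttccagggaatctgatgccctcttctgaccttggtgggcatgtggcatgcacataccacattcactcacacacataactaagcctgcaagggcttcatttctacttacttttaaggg
Psmb8 (chr17:34197945-34198244, plus strand): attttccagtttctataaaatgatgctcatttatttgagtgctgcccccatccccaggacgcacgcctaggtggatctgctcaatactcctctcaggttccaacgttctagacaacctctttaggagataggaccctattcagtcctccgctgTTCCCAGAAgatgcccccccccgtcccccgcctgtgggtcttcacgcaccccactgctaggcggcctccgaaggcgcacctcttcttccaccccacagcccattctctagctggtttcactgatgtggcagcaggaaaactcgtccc
Psme1 (chr14:55578244-55578543, plus strand): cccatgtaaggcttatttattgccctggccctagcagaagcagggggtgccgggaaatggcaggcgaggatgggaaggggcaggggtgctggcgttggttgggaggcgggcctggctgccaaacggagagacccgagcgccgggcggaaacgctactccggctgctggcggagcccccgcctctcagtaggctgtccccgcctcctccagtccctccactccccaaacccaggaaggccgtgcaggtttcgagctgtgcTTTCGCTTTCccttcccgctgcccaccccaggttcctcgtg
TTCNNNGAA stood in the window of Psmb8, 97 bases before its start, and the interferon-stimulated response element, on the other strand, in that of Psme1, 10 bases after it. The windows of Psmb9 and Psmb10 held neither motif, which says nothing of sites elsewhere. Of the 44 members with a window in the table, 3 held TTCNNNGAA (6.82%, against 8.24% of the 12183 tested genes with a window) and 5 held the interferon-stimulated response element (11.4%, against 3.69%), namely Psmb3, Psmd4, Psmd9, Psme1 and Psmg4.

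The other genes of the peptide-loading route showed mostly the direction of Psmb9 and Psmb10. Of 8 genes for peptide transport, trimming and their transcriptional control, 6 were lower, 1 higher and 1, the loading chaperone Tapbp, neither, with a median log2 change of −1.18 against −0.03 for all genes, of which 33.1% were lower. Nlrc5, the transactivator of MHC class I genes and of Psmb9, had 1535, 1500 and 1287 in toyocamycin samples, against 11600.4, 12655 and 11054 in Control samples, with no overlap. That is 8.17-fold lower (log2 change −3.03, SE 0.067, limma adjusted p = 6.83e-19). The peptide transporter gene Tap1, the neighbour of Psmb9, was 3.25-fold lower, its partner Tap2 was 2.58-fold lower and the trimming peptidase gene Erap1 was 3.65-fold lower. Irf1, an interferon regulatory factor gene, fell by 0.33 on the log2 scale, a call lost after the GC and length correction. The single higher gene was B2m, the light chain of MHC class I (log2 change 0.42), at 0.07 with equal totals and −0.0089 after the GC and length correction, neither of which passed the test.

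The alpha ring showed the most uniform rise of the constitutive parts, with a median log2 change of 0.67. There 6 of 7 tested genes were higher and 1 lower, against 32.8% and 33.1% of all genes tested. The counts were the same with equal totals, against 24.9% and 42.5% of all genes tested. With quantile normalization 5 were higher and 1 lower, against 33% and 31.8%. Psma3 (α7; chr12:70969283-70995877) had 902.0, 815.6 and 744.3 in toyocamycin samples, against 250.1, 272.9 and 290.5 in Control samples. All 3 toyocamycin samples were well above Control, 3.03-fold on average (log2 change 1.59, SE 0.11, limma adjusted p = 1.45e-11). Reads of Psma3 are uncertain, since near-identical copies of at least 300 bases lie elsewhere in the genome. Psma2, Psma5, Psma6, Psma7 and Psma1 rose by 1.41-fold to 1.69-fold, the call of Psma1 being lost with quantile normalization (log2 change 0.02). Psma5 also has near-identical copies elsewhere in the genome. Psma4 (α3; chr9:54950781-54958034) had 1499, 1437 and 1368 in toyocamycin samples, against 1615, 1587 and 1747 in Control samples. It was the lower gene of the ring (log2 change −0.20, SE 0.066, limma adjusted p = 0.0114), and the call was lost without Control replicate 3 (log2 change −0.16, limma adjusted p = 0.0639, range over the alternatives 5.65e-07 to 0.0639). Reads of Psma4 are uncertain too, given a near-identical copy of 783 bases elsewhere and 114 bases of exon shared with another annotated gene. Psma8, the form of α4 found in testis, was at 0 in 5 samples and at 3.51 in Control replicate 3, and did not pass the filter; 3 reads correspond to 2.54 to 3.96 in these libraries.

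In the beta ring, which forms the proteolytic chamber, 4 of 7 tested genes were higher and 2 lower with the deposited scaling. Those shares were 57.1% and 28.6%, against 32.8% and 33.1% of all genes tested. Only 2 were higher with equal totals or with quantile normalization, against 24.9% and 33% of all genes tested. Beside Psmb7 and Psmb6, the higher genes were Psmb1 (1.48-fold) and Psmb2 (1.31-fold), both of structural subunits; the call of Psmb1 was lost with quantile normalization (log2 change 0.10) and that of Psmb2 with equal totals (0.03), and the sign of Psmb2 turned to −0.03 with quantile normalization. Psmb4 (β7; chr3:94884324-94886958) had 2142, 2173 and 1836 in toyocamycin samples, against 3536, 3554 and 4034 in Control samples. This structural subunit, whose tail helps to hold the core together, was 1.81-fold lower with no overlap (log2 change −0.86, SE 0.070, limma adjusted p = 4.91e-10). Psmb3, which has near-identical copies elsewhere in the genome, was 1.26-fold lower. Psmb11, the subunit of the thymus form, was at 0.85 in toyocamycin replicate 2, at 1.76 in Control replicate 2 and at 0 in the other samples, below the level of 3 reads throughout.

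The base holds the 6 ATPases that unfold substrates and, in Psmd1, Psmd2 and Psmd4, scaffold and ubiquitin-binding subunits. With the deposited scaling 7 of 9 genes were higher and 2 lower (median 0.26), against 32.8% and 33.1% of all genes tested. The split was 4 and 4 with equal totals, against 24.9% and 42.5%, and 3 and 5 with quantile normalization, against 33% and 31.8%. The direction of the base as a whole thus depended on scaling. Psmc2 (Rpt1; chr5:21785275-21803787) had 5149, 5618 and 5208 in toyocamycin samples, against 2481, 2459 and 2497 in Control samples. It was 2.15-fold higher with no overlap (log2 change 1.10, SE 0.054, limma adjusted p = 1.04e-13). Psmc3 (Rpt5; chr2:91054016-91059438), an ATPase of the same ring, had 2455, 2622 and 2285 in toyocamycin samples, against 4572, 4435 and 4639 in Control samples. Here the Control samples were the higher ones, and Psmc3 was 1.85-fold lower (log2 change −0.89, SE 0.058, limma adjusted p = 1.29e-11). Psmc3 shares 215 bases of exon with Slc39a13, so its reads are uncertain. Psmc6 and Psmc5 were 1.55-fold and 1.47-fold higher, and Psmc4 was 1.29-fold lower. Psmd4, the gene of a ubiquitin receptor, and Psmd1, that of a scaffold, were called higher at log2 changes of 0.17 and 0.13 and lower at −0.18 and −0.22 with equal totals, and that of Psmc1 was 0.26 and −0.09. The calls of Psmd4 and Psmd1 were also lost without either of Control replicates 1 and 2 and without toyocamycin replicate 1, that of Psmd4 also without toyocamycin replicate 2 and that of Psmd1 after the GC and length correction. Reads of Psmc1 and Psmd2, which have near-identical copies, and of Psmd1, which shares 301 bases of exon with another annotated gene, are uncertain.

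In the lid, 7 of 9 genes were higher and 1 lower (median 0.69), against 32.8% and 33.1% of all genes tested. With equal totals 6 were higher and 2 lower, against 24.9% and 42.5%, and with quantile normalization 6 and 3, against 33% and 31.8%. Psmd11 (Rpn6; chr11:80428615-80473248), which clamps the lid to the core, had 3834, 4118 and 3796 in toyocamycin samples, against 1269, 1431 and 1338 in Control samples. The groups lay far apart, at 2.91-fold (log2 change 1.54, SE 0.062, limma adjusted p = 4.06e-15), although near-identical copies make the assignment of its reads uncertain. Psmd14 (Rpn11; chr2:61711694-61800376), the deubiquitinase of the lid, had 5485, 5741 and 5589 in toyocamycin samples, against 2359, 2445 and 2590 in Control samples. It was 2.27-fold higher with no overlap (log2 change 1.19, SE 0.055, limma adjusted p = 3.45e-14). Psmd12, Psmd7, Sem1 and Psmd6 rose, with log2 changes of 0.59 to 0.92, although the call of Sem1 was lost after the GC and length correction (0.25). Psmd13 (Rpn9; chr7:140882394-140898642) had 1918, 1810 and 1502 in toyocamycin samples, against 3294, 3281 and 3589 in Control samples. It was the lower gene of the lid, by 1.94-fold (log2 change −0.96, SE 0.075, limma adjusted p = 2.35e-10), and shares 342 bases of exon with Sirt3. Psmd8 and Psmd3 had log2 changes of 0.26 and 0.11 with the deposited scaling and −0.09 and −0.24 with equal totals.

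**Figure D3:**
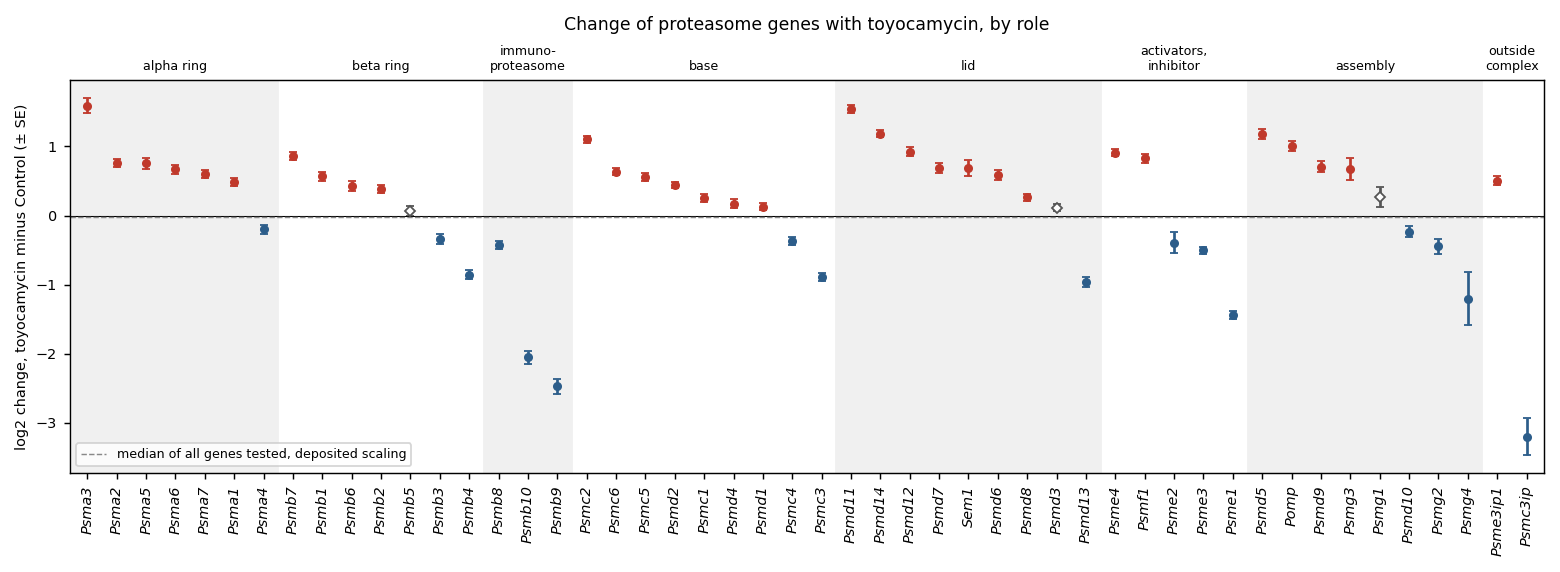
The log2 change, toyocamycin minus Control, is plotted with its SE for the 50 genes tested, ordered within each role. Red points were called higher, blue points lower, and the open diamonds of Psmb5, Psmd3 and Psmg1 passed the test in neither direction. The immunoproteasome genes all lie below 0, and several small changes turn sign with equal totals, as the plot of scalings shows.

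Promoters of a pair of genes that rose, Psma3 of the core and Psmd14 of the lid, are shown because constitutive proteasome genes are known to be driven through antioxidant response elements by NRF1, the product of Nfe2l1, and through CCAAT boxes by NF-Y. Capitals mark TGACNNNGC (the core of the antioxidant response element) or CCAAT, on either strand, and overlapping matches run together.
Psma3 (chr12:70974373-70974672, plus strand): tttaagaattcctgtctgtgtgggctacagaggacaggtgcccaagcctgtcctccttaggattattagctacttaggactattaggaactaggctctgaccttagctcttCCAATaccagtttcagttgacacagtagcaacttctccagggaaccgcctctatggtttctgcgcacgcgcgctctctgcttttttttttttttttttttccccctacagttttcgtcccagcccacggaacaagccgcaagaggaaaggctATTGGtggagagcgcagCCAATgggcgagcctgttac
Psmd14 (chr2:61711444-61711743, plus strand): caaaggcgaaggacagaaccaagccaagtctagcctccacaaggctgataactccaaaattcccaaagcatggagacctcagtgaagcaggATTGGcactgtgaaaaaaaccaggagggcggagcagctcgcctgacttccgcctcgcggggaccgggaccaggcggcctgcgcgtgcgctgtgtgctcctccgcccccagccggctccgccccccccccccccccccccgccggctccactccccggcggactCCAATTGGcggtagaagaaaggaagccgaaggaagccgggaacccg
Both windows held CCAAT at 3 places and TGACNNNGC at none. The window of Psma3 lies within the gene coordinates given above, at a start other than the first base of the gene. Of the 44 members with at least 1 window, 16 held CCAAT (36.4%, against 42.4% of tested genes). TGACNNNGC was held by 7 (15.9%, against 16.7%), namely Psmb5, Psmb6, Psmc6, Psmd12, Psmd9, Psme4 and Sem1. GGGCGG, the GC box, was held by 25 (56.8%, against 64.5%). These shares were near or below those of all tested genes with a window.

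The activators were split. Psme1 (PA28 alpha; chr14:55578494-55581527), which with Psme2 forms the interferon-inducible cap, had 968.0, 996.0 and 1008 in toyocamycin samples, against 2677, 2595 and 2789 in Control samples. All toyocamycin samples were far lower, 2.71-fold on average (log2 change −1.44, SE 0.062, limma adjusted p = 1.26e-14). Psme4 (PA200; chr11:30771775-30881150), a nuclear activator linked to degradation of acetylated histones, had 6343, 6624 and 6600 in toyocamycin samples, against 3476, 3537 and 3392 in Control samples. It was 1.88-fold higher with no overlap (log2 change 0.91, SE 0.051, limma adjusted p = 8.26e-13). The inhibitor gene Psmf1 (PI31) was 1.78-fold higher, and Psme3 (PA28 gamma, a nuclear activator) was 1.42-fold lower. Psme2 (PA28 beta) was called lower at a log2 change of −0.39 (limma adjusted p = 0.0261), with 0.14 under quantile normalization, and has a near-identical copy. Its call was also lost after the GC and length correction, without any 1 of the 3 Control replicates and without toyocamycin replicate 2, with log2 changes of −0.43 to −0.31 when 1 sample was left out. In all, 2 of the 5 were higher and 3 lower, against 32.8% and 33.1% of all genes tested. The split was 2 and 2 with quantile normalization, against 33% and 31.8%.

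Assembly genes, which encode chaperones that build the core or the base and leave the finished particle, had 4 of 8 higher, 3 lower and 1 neither (median 0.47). Those shares were 50% higher and 37.5% lower, against 32.8% and 33.1% of all genes tested. The split was 3 and 3 under equal totals, against 24.9% and 42.5%, and 5 and 0 under quantile normalization, against 33% and 31.8%. Psmd5 (chr2:34852087-34870965), a chaperone of the base, had 2773, 2891 and 2467 in toyocamycin samples, against 1178, 1239 and 1159 in Control samples. It was 2.27-fold higher, with the groups far apart (log2 change 1.18, SE 0.068, limma adjusted p = 1.35e-12). Pomp (chr5:147860628-147875784), needed for the joining of half-cores, had 2433, 2562 and 2465 in toyocamycin samples, against 1220, 1146 and 1351 in Control samples. It was 2.01-fold higher with no overlap (log2 change 1.01, SE 0.068, limma adjusted p = 1.91e-11). Psmg4 (chr13:34162964-34178172), a core chaperone of low level, had 31.7, 22.9 and 14.6 in toyocamycin samples, against 68.9, 37.7 and 53.5 in Control samples. It was called lower (log2 change −1.20, SE 0.39, limma adjusted p = 0.00931), but the call was lost with quantile normalization (log2 change −0.84), without Control replicate 1 and without toyocamycin replicate 3 (−0.92), with adjusted p from 0.00228 to 0.0891 over the alternatives. Psmd9 and Psmg3 were called higher at log2 changes of 0.71 and 0.67, that of Psmg3 lost with equal totals (0.32), and Psmd10 (gankyrin) and Psmg2 were called lower at log2 changes of −0.23 and −0.44, both lost with quantile normalization (−0.11 and −0.08) and that of Psmd10 also without Control replicate 2.

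Outside the complex, Psmc3ip (chr11:101092141-101095435) had 33.0, 18.6 and 34.0 in toyocamycin samples, against 211.1, 272.9 and 311.6 in Control samples. This was the most negative change of the 50 genes tested, 9.29-fold lower (log2 change −3.20, SE 0.26, limma adjusted p = 5.96e-10), in a gene that shares 385 bases of exon with Mlx. Psme3ip1 was 1.42-fold higher.

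**Figure D4:**
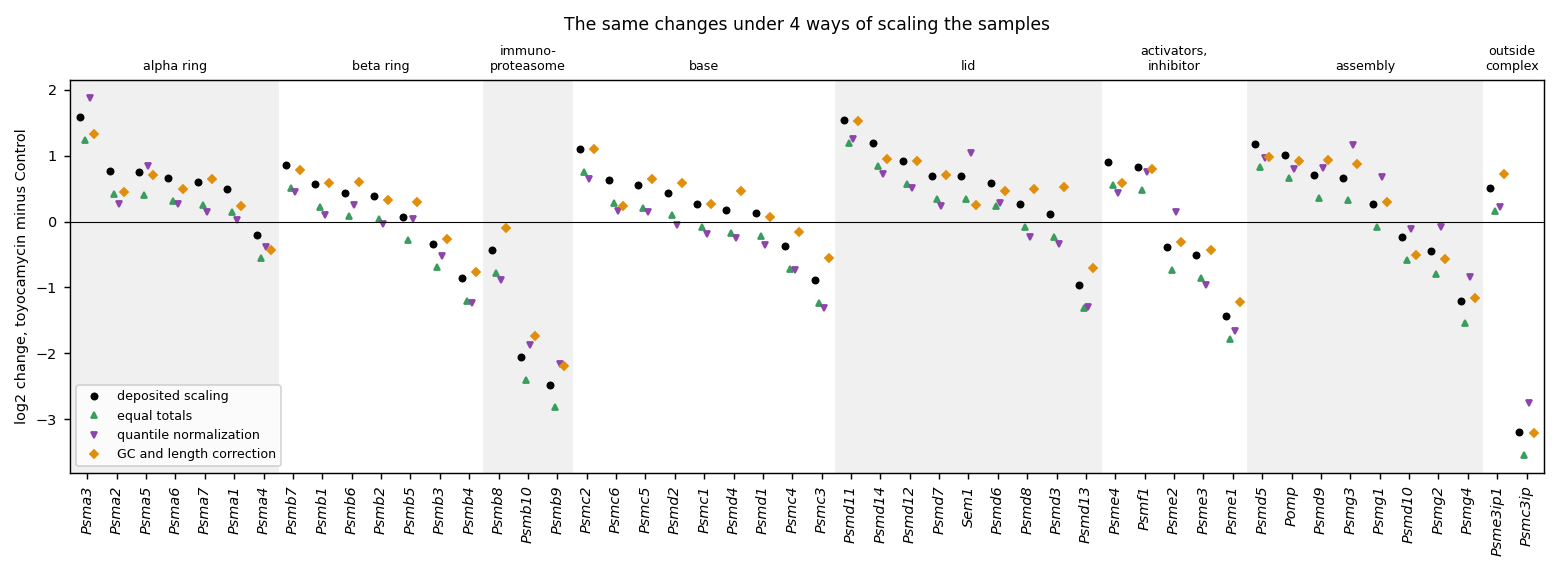
The log2 change of the 50 genes tested is plotted under the deposited scaling, equal totals, quantile normalization and the GC and length correction, grouped by role. Psmg1, Psmc1, Psmd4, Psmd1, Psmb5, Psmd8 and Psmd3 turn from above 0 to below 0 with equal totals, while Psmb9, Psmb10, Psme1 and Psmc3ip stay far below 0 under every setting plotted.

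Proteins that work with the 26S particle were also mostly higher: of 19 genes in the table, 15 were higher, 1 lower and 3 neither, with a median log2 change of 0.60, against 32.8% higher and 33.1% lower of all genes tested. With equal totals 10 were higher and 4 lower, against 24.9% and 42.5%, and with quantile normalization 12 and 6, against 33% and 31.8%. Adrm1, the ubiquitin receptor Rpn13, had 2166, 2126 and 2115 in toyocamycin samples, against 598.9, 709.1 and 727.6 in Control samples. That is 3.15-fold higher with no overlap (log2 change 1.66, SE 0.077, limma adjusted p = 4.02e-14). Akirin2, which guides proteasomes into the nucleus, had 2312, 2383 and 3531 in toyocamycin samples, against 765.6, 760.9 and 784.6 in Control samples. It was 3.56-fold higher, with toyocamycin replicate 3 above the other two. Zfand5, an activator of the 26S particle, was 3.15-fold higher, Ecpas, a proteasome-binding scaffold, was 2.60-fold higher and Usp14, a deubiquitinase of the particle, was 2.33-fold higher. Of the shuttle receptor genes, Ubqln1 was 2.57-fold and Rad23b 1.55-fold higher. The lower gene was Ubqln4, of the same family as Ubqln1, at a log2 change of −0.21 that was 0.14 after the GC and length correction. The polyubiquitin gene Ubb was 1.26-fold higher, but at −0.02 on the log2 scale with equal totals and −0.15 with quantile normalization.

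NRF1 reaches the nucleus only after extraction from the endoplasmic reticulum by VCP, removal of sugars by NGLY1 and cleavage by DDI2, and it binds DNA with small MAF proteins. Of 10 genes of this route, 6 were higher, 3 lower and 1, Syvn1, neither, with a median of 0.52, against 32.8% higher and 33.1% lower of all genes tested. Among the 6 higher genes, Ddi2 and Vcp are also counted in the list of 26S partners, so the lists are not independent. The split of the list was 5 and 4 with equal totals, against 24.9% and 42.5% of all genes tested. With quantile normalization it was 5 and 5, against 33% and 31.8%, so the balance of the list depended on scaling. Nfe2l1 had 4568, 4469 and 4654 in toyocamycin samples, against 5376, 5513 and 5532 in Control samples. The groups were separate and Nfe2l1 was 1.20-fold lower (log2 change −0.26, SE 0.050, limma adjusted p = 8.70e-05), a call lost after the GC and length correction (−0.06). The partner gene Mafk was 3.51-fold higher, Mafg was 1.56-fold higher, Ddi2 was 2.65-fold higher and the related factor gene Nfe2l2 was 2.16-fold higher. Ngly1 was 2.25-fold lower and Sel1l, of the extraction machinery, was 1.84-fold lower. Steps of the route thus moved in both directions at the level of mRNA.

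**Figure D5:**
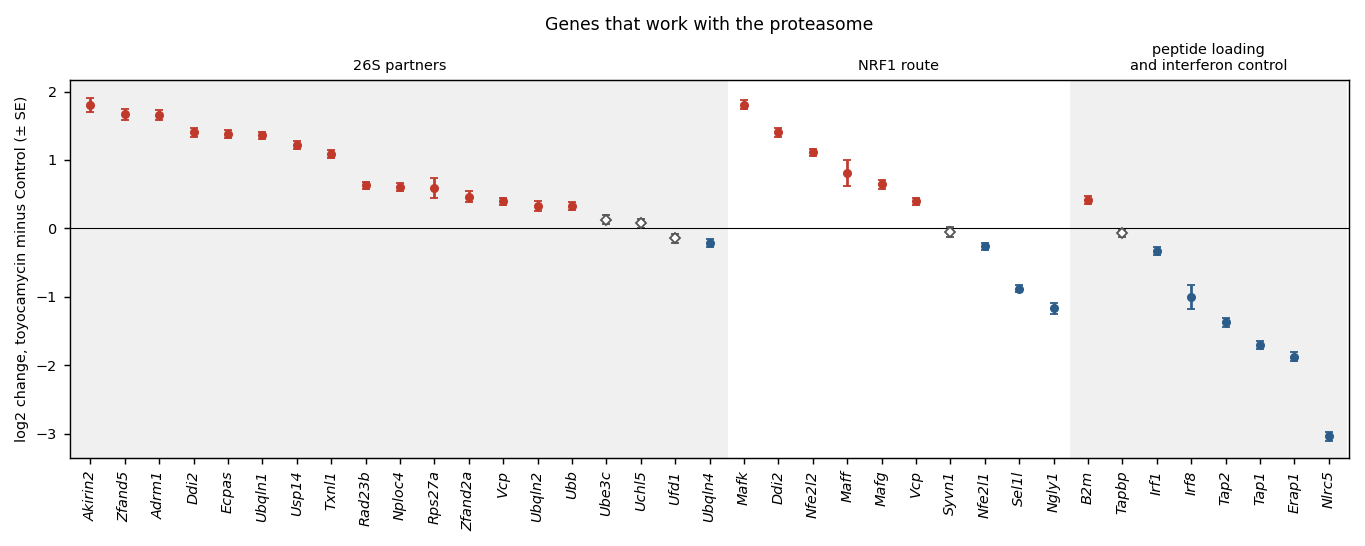
The log2 change, toyocamycin minus Control, is plotted with its SE for genes that work with the proteasome, in 3 lists. Red points were called higher, blue points lower and open diamonds neither. Most 26S partners lie above 0, the NRF1 route is divided, and Nlrc5 is the lowest of the peptide loading list; B2m turns to just below 0 after the GC and length correction, and Ubb turns negative with equal totals.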

How the data were processed

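Reads were trimmed with cutadapt 4.7, FastQC was run and mm10 was the build, per the submitters' processing notes; RNA was isolated with TRIzol, per the labels' protocols. Not given in the sources used here are the aligner, the counter, its strand setting and its treatment of reads with several matches. Although the deposited file name says FPKM, its unit is a normalised signal: with a tolerance of 0.01 reads, 100% of the values in every sample are whole reads divided by 1 size factor (0.757 to 1.18), the same for short and long genes. They are called normalised read counts here.

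Toyocamycin was compared with Control by limma 3.58.1 (R 4.3.3) with a mean-variance trend, on log2(value + 1), in the 16223 genes with a mean of at least 1, two-sided, with Benjamini-Hochberg adjustment and a threshold of 0.05. A log2 change on this scale understates changes of genes with few reads. Folds are ratios of group means. The count test, edgeR 4.0.16 quasi-likelihood on the recovered reads, had been kept for a table of raw counts and was run as an alternative, as was DESeq2 1.42.0; edgeR called 4980 genes higher and 5329 lower of 12949 tested. Other alternatives were the pseudocount (0.5 and 10), the filter (none, and a mean of 10), equal totals, quantile normalization, a GC and length correction (97.71% of genes had both), a replicate block and leaving out each sample. Values without genes that have copies or overlapping exons were added after seeing the data. The procedure was tested on simulated data.

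The members and lists were chosen with earlier results of these data known, so they are described by counts and medians with no test of a list. Paaf1, 1 of the 20 genes listed as 26S partners, had no row. Some genes first placed on the companion lists are not reported here, and the counts leave them out. Values in every sample are given for the catalytic subunits, for members called with a change of at least 1 on the log2 scale, and for the most positive and most negative called gene of each role; companion genes given with values were those at the ends of each list and others chosen after their values were seen. Replicates varied beyond counting noise (3.96 to 7.76 as chi-square per degree of freedom) and were kept apart. Levels of 3 reads cover counting error only. Gene coordinates come from RefSeq on GRCm38, and exon lengths and overlaps from the GENCODE annotation of GRCm38. Near-identical copies (at least 95% identity over 300 bases outside the gene) come from blastn 2.17.0. Promoters were found for 44 of the 52 members in the RefSeq table. Protein sequences were not analysed here.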

Additional observations from a re-analysis of the deposited data

How the results depend on the processing

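Scaling decided the balance of higher and lower proteasome genes more than any other choice. With equal totals the median log2 change of the members was 0.087, with 4 base genes higher and 4 lower, 2 beta ring genes higher and 2 lid genes lower; with quantile normalization it was 0.12, with 3 base genes higher and 5 lower, 2 beta ring genes higher, 3 lid genes lower and 0 assembly genes lower. Without members that have a near-identical copy or overlapping exons, 22 of 30 were higher and 7 lower and the median was 0.58. The shares of all genes tested were 32.8% and 33.1%. The 20 removed genes had 9 higher and 9 lower. Leaving out 1 sample at a time, the alpha ring had 0 to 1 genes lower. Signs turned for 7 of the 50 members with equal totals, 4 of them called in the turned direction (Psmb5 at −0.28, Psmd4, Psmd1 and Psmd3). With quantile normalization signs turned for 8, and Psmc1 (−0.19), Psmd8 (−0.23), Psmd4, Psmd1 and Psmd3 were called in the turned direction. Psmd2 went from 0.44 to −0.05 there and was not called. Among the companion genes, the GC and length correction turned the signs of Ubqln4 (0.14), Uchl5 (−0.27), Ube3c (−0.09), Syvn1 (0.32), Tapbp (0.34) and B2m (−0.0089). The cause was not tested. Of the 50 genes tested, 30 kept their call and direction in every alternative, 20 higher and 10 lower. The matching share over all genes was not computed, so whether 30 of 50 is many for these data is unknown. The edgeR and DESeq2 tests each called 31 members higher and 16 lower. Over all genes, edgeR called 4980 higher and 5329 lower, and DESeq2 called 5131 and 5017. Same-numbered samples did not deviate together (r = −0.00795, 0.023 and −0.0413). This cannot tell whether the numbers mark a shared mouse, sort or culture. With the replicate block 31 members were higher and 16 lower, and 5272 and 5298 of all genes. The 9 members with near-identical copies and 14 with overlapping exons are uncertain, and below about 3 reads no level can be read.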
